A study of Homo sapiens with 6 samples.

Results

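Integrin subunits expressed by a glioma cell line are described here. They were chosen by name, as the rows of the deposited tables whose symbol was ITGAV, ITGA2, ITGA3, ITGA5, ITGA6, ITGB1, ITGB3, ITGB4, ITGB5 or ITGB8, and all 10 were found, each in 1 row of the 42307 genes listed. The data are RNA sequencing of U251, an established human glioblastoma line labelled as wild type, in which cells carried either a STING overexpression plasmid (STING-OE, 3 libraries) or a negative control plasmid (NC, 3 libraries). Both groups received 1 ug of plasmid per well and were collected on day 3. STING is an endoplasmic reticulum protein that relays the detection of cytosolic DNA to interferon signalling. The study used a single line, and the labels give neither the transfected share of the cells nor whether replicates were separate cultures, so p-values measure only the spread between these libraries, which may be technical.

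Integrins are cell surface receptors made of 1 alpha and 1 beta chain, which bind extracellular matrix outside the cell and the actin cytoskeleton, through adaptors such as talin and kindlin, inside it. The alpha chain largely sets which ligand is bound. ITGAV pairs with ITGB1, ITGB3, ITGB5 or ITGB8 to bind RGD-containing proteins such as vitronectin or latent TGF-beta, ITGA5 pairs with ITGB1 to bind fibronectin, ITGA3 and ITGA6 with ITGB1 and ITGA6 with ITGB4 bind laminins, and ITGA2 with ITGB1 binds collagen. In glioblastoma these receptors are known for roles in invasion along brain matrix and in the activation of TGF-beta.

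The RefSeq promoter table (GRCh38.p14) held starts for 7 of the 10 genes: ITGAV, ITGA2, ITGA5, ITGA6, ITGB1, ITGB5 and ITGB8. Where a gene had several starts, the start nearest the 5′ end of the deposited gene model was taken. The 120 bases before the start are shown for ITGAV and ITGB5, partners whose transcripts were both lower with the STING plasmid, and for ITGA2 and ITGA6, whose estimates lay nearest 0. Capitals mark GC boxes (GGGCGG, or CCGCCC on the other strand).
ITGAV, chr2:186589936-186590055, plus strand: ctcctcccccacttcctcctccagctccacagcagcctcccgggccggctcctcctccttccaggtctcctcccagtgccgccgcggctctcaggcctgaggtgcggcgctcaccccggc
ITGB5, chr3:124901419-124901538, minus strand: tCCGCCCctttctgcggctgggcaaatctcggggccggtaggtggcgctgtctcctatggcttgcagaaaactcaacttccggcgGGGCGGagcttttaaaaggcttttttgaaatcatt
ITGA2, chr5:52989232-52989351, plus strand: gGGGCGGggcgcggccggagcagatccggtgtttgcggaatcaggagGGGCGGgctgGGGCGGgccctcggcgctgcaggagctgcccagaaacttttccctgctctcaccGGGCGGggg
ITGA6, chr2:172427216-172427335, plus strand: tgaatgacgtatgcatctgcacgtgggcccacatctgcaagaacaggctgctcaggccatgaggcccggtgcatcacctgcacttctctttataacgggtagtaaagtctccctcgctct

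The ITGB5 window held 2 GC boxes and the ITGAV window 0, whereas among the genes with estimates near 0 ITGA2 had 4 and ITGA6 had 0. Within 250 bases before the start, 5 of the 7 promoters held a GC box, against 42.6% of 35116 promoters in the table. ITGAV and ITGA6 held none there. The 6 letters TATAAA (or TTTATA) were found in 1 of the 7, that of ITGA6, against 10.7% of all promoters. The AP-1 motif TGACTCA (or TGAGTCA) was found in 0 of the 7, against 4.2% of all. GC content over these 250 bases ran between 50.8% for ITGA6 and 78.4% for ITGB1, with a median of 58% over all promoters. These matches describe letters only, and the motifs were chosen with results of these data known.

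The deposited counts summed to between 75605739 and 76566375 in the STING-OE libraries and between 71498790 and 76158548 in the NC libraries, so 3 counts, the limit that a count of 0 allows from counting error alone, equal 0.0392 to 0.042 CPM (counts scaled to a common library size). The 10 integrin genes took 0.236%, 0.237% and 0.241% of all counts in STING-OE libraries 1, 2 and 3 and 0.26%, 0.26% and 0.251% in NC libraries 1, 2 and 3. STING1, which the plasmid carries and whose plasmid and chromosomal transcripts are not separated here, was at 56.3, 54.7 and 47.3 CPM in the STING-OE libraries and at 36.2, 37.1 and 31.2 CPM in the NC libraries (log2 fold change 0.60, edgeR adjusted p = 0.00221). Of the 8 glioma markers VIM averaged 2630 ± 57.3 CPM with the STING plasmid and 2790 ± 37.1 CPM with the control plasmid. NES averaged 162 ± 1.61 and 180 ± 7.32 CPM, and GFAP 21.5 ± 3.88 and 39.1 ± 3.98 CPM (edgeR adjusted p = 0.033). VIM and NES did not pass (edgeR adjusted p of 0.32 and 0.106). The groups overlapped for CD44 (913 ± 11.6 and 942 ± 24.9 CPM), EGFR (242 ± 8.86 and 246 ± 5.47 CPM) and SOX2 (108 ± 8.8 and 120 ± 4.78 CPM). S100B and OLIG2 stayed under 0.3 CPM in both means (SD, n = 3). In these bulk libraries fewer cells that express a gene and less of its RNA per cell cannot be told apart.

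Levels between genes are comparable only per length, so the authors' FPKM values (fragments scaled by gene length and sequencing depth) were used for the order. ITGA3, a laminin-binding alpha chain, was highest, at 85.39, 81.78 and 86.04 FPKM in STING-OE libraries 1, 2 and 3 and 95.16, 91.86 and 86.27 FPKM in NC libraries 1, 2 and 3. ITGB1, the beta chain shared by all the alpha chains described here, came next. ITGB1 was at 77.5 ± 3.69 FPKM with the STING plasmid and 82.5 ± 1.81 FPKM with the control plasmid (SD, n = 3). These were by far the highest members, and the highest value of any other member was 30.49 FPKM, for ITGA5 in NC library 2.

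ITGA5 followed at 26.9 ± 1.15 FPKM in STING-OE and 29.2 ± 1.41 FPKM in NC, and ITGAV at 24.4 ± 1.27 and 28.6 ± 0.375 FPKM. Their ranges overlapped in both groups, so their order is not set by these libraries. ITGB4, better known from epithelial hemidesmosomes, was at 18.5 ± 0.171 FPKM in STING-OE and 22.4 ± 1.18 FPKM in NC. ITGA6, its partner, was at 12.6 ± 1.11 and 12.6 ± 0.813 FPKM, and ITGA2 at 12.1 ± 0.295 and 12.1 ± 0.594 FPKM, again with overlapping ranges. ITGB8 was at 8.77 ± 0.0551 FPKM in STING-OE and 9.0 ± 0.34 FPKM in NC, ITGB5 at 6.86 ± 0.229 and 8.25 ± 0.395 FPKM, and ITGB3 was lowest, at 2.97 ± 0.307 and 3.52 ± 0.229 FPKM. Apart from the pairs ITGA5 with ITGAV and ITGA6 with ITGA2, neighbours in this order did not overlap in either group. The authors' gene lengths are not the lengths of single transcripts: dividing CPM by the longest coding GENCODE v29 transcript instead kept the first 5 places and the last, but moved ITGB8 to the sixth place, just above ITGA6 (16.3 and 16.2 CPM per kilobase in STING-OE, 17 and 16.4 in NC). ITGA2 and ITGB5 followed at 13.1 and 11 CPM per kilobase in STING-OE and were nearly equal in NC, at 13.3 and 13.4.

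**Figure D1:**
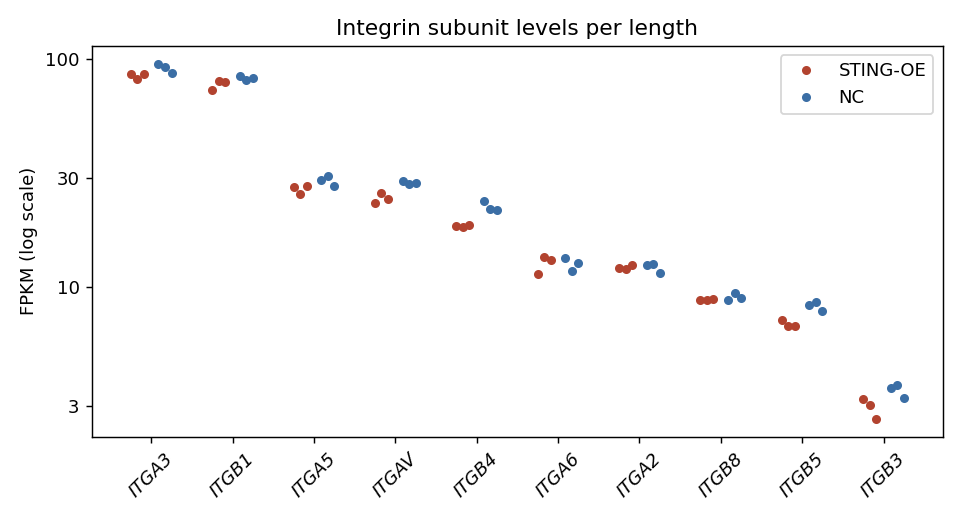
Level per length of each integrin subunit, in FPKM on a log axis. Each point is 1 library, STING-OE in red at the left and NC in blue at the right of each gene. ITGA3 and ITGB1 lie above 70 FPKM in every library, and ITGB3 lies lowest, between 2.63 and 3.7 FPKM.

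Among the alpha chains, ITGA3 made up 52.6 ± 1.0% of the summed FPKM with the STING plasmid and 52.5 ± 0.675% with the control plasmid, ITGA5 16.8 ± 0.536% and 16.8 ± 0.571%, and ITGAV 15.2 ± 0.906% and 16.5 ± 0.581% (SD, n = 3). The share of ITGA2 was 7.55%, 7.51% and 7.63% in STING-OE libraries and 6.93%, 7.16% and 6.86% in NC libraries. Among the beta chains, ITGB1 held 67.6 ± 1.35% with the STING plasmid and 65.6 ± 0.723% with the control plasmid, and ITGB4 16.1 ± 0.514% and 17.8 ± 0.542%. The shares of ITGA2 and ITGB4 did not overlap between groups, whereas those of all other members did. A share also depends on the other chains in its sum, and the log2 fold change of ITGA2 itself was -0.02. How often shares of other genes would be apart was not measured. The summed FPKM of the 5 alpha chains was 160 ± 2.66 with the STING plasmid and 174 ± 6.36 with the control plasmid, and that of the 5 beta chains 115 ± 3.22 and 126 ± 2.76. No test was made on shares or sums over the members.

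STING-OE and NC libraries were compared to ask which of these transcripts differ. Of the 10 subunits 0 rose, 3 fell (ITGB4, ITGB5 and ITGAV) and 7 did not pass the test, the quasi-likelihood test of edgeR, with p-values adjusted by the Benjamini-Hochberg method over 21679 tested genes and called under 0.05. All 10 passed the filter on low counts. Over all tested genes 1.49% were called, 0.604% higher (131 genes) and 0.89% lower (193 genes; with total counts as library sizes the split was 246 higher and 138 lower), and 1.97% were called lower among the 8432 genes averaging 20 CPM or more, the range in which all 10 lie. All 10 estimates were below 0 (8 with total counts as library sizes, where ITGA2 and ITGA6 lay above 0), with a median log2 fold change of -0.134, against 0.001 over all tested genes. The CPM values of the groups did not overlap for 7 members, all lower with the STING plasmid. Groups were apart in 19.9% of all tested genes, and apart and lower in 9.73% of all and in 13.7% of those with at least 20 CPM. For each of these 7 a two-sided exact permutation test gave p = 0.1, below which a design of 3 and 3 libraries cannot go. The changes were small, between -0.30 and -0.01 on the log2 scale. With limma on log2 FPKM 0 of the 10 passed, against 13 and 14 of all 21679 tested genes at pseudocounts of 0.1 and 1. STING1 did not pass there either (limma adjusted p of 0.0732 and 0.0824).

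**Figure D2:**
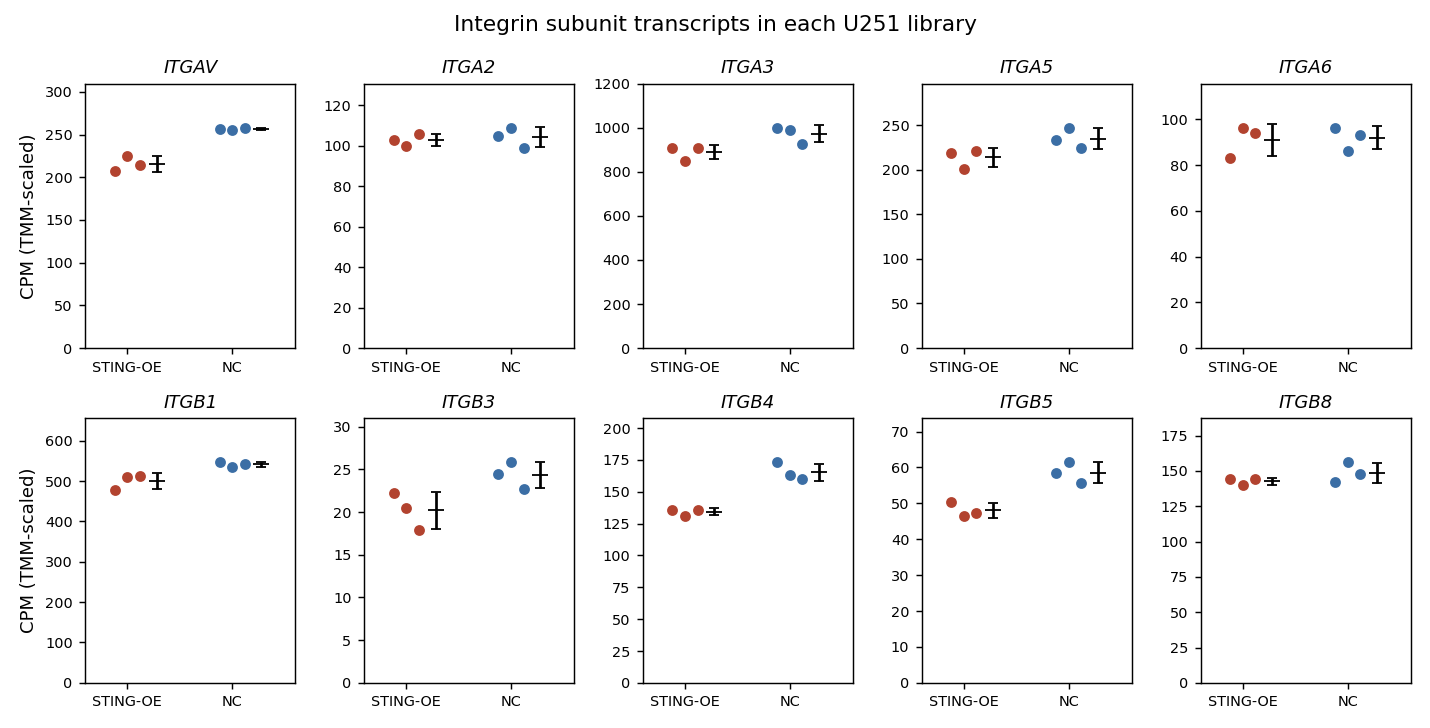
Transcript level of each integrin subunit in every library, in CPM on TMM-scaled library sizes, with axes from 0. Points are libraries, STING-OE in red at the left and NC in blue at the right, and black bars are the mean ± SD of 3 libraries. The red points of ITGAV (207 to 225 CPM), ITGB4 (131 to 136 CPM) and ITGB5 (46.5 to 50.4 CPM) all lie below the blue ones, while those of ITGA2, ITGA6 and ITGB8 overlap them.

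In the RGD-binding receptors built on ITGAV, ITGAV and ITGB5 fell, and ITGB1, ITGB3 and ITGB8 did not pass the test. ITGAV (ENSG00000138448, chromosome 2, 186590056 to 186680901, plus strand), the alpha chain of all of them, was at 207, 225 and 214 CPM in STING-OE libraries 1, 2 and 3 and at 256, 255 and 258 CPM in NC libraries 1, 2 and 3. Every STING-OE library lay below every NC library, and the NC libraries differed by little. ITGAV fell to 0.84 of the control level (log2 fold change -0.25, SE 0.044, edgeR adjusted p = 0.0104). The call was lost without NC library 1, 2 or 3 (adjusted p of 0.0814, 0.0703 and 0.0718), with log2 fold changes of -0.252, -0.257 and -0.248.

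ITGB5 (ENSG00000082781, chromosome 3, 124761948 to 124901418, minus strand), whose receptor with ITGAV binds vitronectin, was at 50.4, 46.5 and 47.3 CPM in STING-OE libraries and at 58.6, 61.4 and 55.8 CPM in NC libraries. The groups were separated by a gap wider than the range within the STING-OE group. ITGB5 fell to 0.821 of the control level (log2 fold change -0.29, SE 0.057, edgeR adjusted p = 0.0208). The call was lost without STING-OE library 2 or 3 (adjusted p of 0.105 and 0.0825) and without NC library 1 or 2 (0.0948 and 0.137).

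ITGB3 (ENSG00000259207, chromosome 17, 47253827 to 47313743, plus strand), whose receptor with ITGAV is known from angiogenic endothelium, was at 22.2, 20.5 and 17.9 CPM in STING-OE libraries and at 24.5, 25.8 and 22.7 CPM in NC libraries. The groups did not overlap, but the highest STING-OE and the lowest NC library lay close together. Its log2 fold change was -0.26 with an SE of 0.086, and it did not pass the test (edgeR adjusted p = 0.146). ITGB8 (ENSG00000105855, chromosome 7, 20330702 to 20415754, plus strand), which with ITGAV activates latent TGF-beta, was at 144, 140 and 144 CPM in STING-OE libraries and at 142, 156 and 148 CPM in NC libraries. The groups overlapped, and the log2 fold change was -0.06 (SE 0.047, edgeR adjusted p = 0.648).

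Of the laminin-binding subunits ITGB4 fell and ITGA3 and ITGA6 did not pass the test. ITGB4 (ENSG00000132470, chromosome 17, 75721328 to 75757818, plus strand), a beta chain with a long cytoplasmic tail that pairs only with ITGA6, was at 136, 131 and 136 CPM in STING-OE libraries and at 173, 163 and 160 CPM in NC libraries. All STING-OE libraries lay well below all NC libraries. ITGB4 fell to 0.812 of the control level (log2 fold change -0.30, SE 0.046, edgeR adjusted p = 0.00469), and of the 6 single-library omissions 1, that of NC library 1, ended the call (log2 fold change -0.267, adjusted p = 0.0658). GALK1, a galactose kinase gene that overlaps the end of ITGB4 on the opposite strand, was at 8.51 ± 0.484 CPM with the STING plasmid and 10.1 ± 0.73 CPM with the control plasmid (SD, n = 3), 6.21% of the ITGB4 counts over all libraries. The strand setting of the counting is not given in the sources used here, and summing ITGB4 with GALK1 gave a log2 fold change of -0.298 (edgeR adjusted p = 0.00479).

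ITGA6 (ENSG00000091409, chromosome 2, 172427354 to 172506459, plus strand), a marker of stem-like glioma cells, was at 83.1, 96.3 and 94.1 CPM in STING-OE libraries and at 96.4, 86.4 and 93.3 CPM in NC libraries. The groups overlapped fully, and the log2 fold change was -0.01 (SE 0.06, edgeR adjusted p = 0.959). ITGA3 (ENSG00000005884, chromosome 17, 50055968 to 50090480, plus strand) was at 909, 851 and 907 CPM in STING-OE libraries and at 1000, 989 and 928 CPM in NC libraries. The groups did not overlap, but the log2 fold change was -0.13 (SE 0.045) and the edgeR adjusted p was 0.17. Correcting for transcript GC content and length, a choice made with the data in view, gave -0.059 (edgeR adjusted p = 0.423), and DESeq2 gave an adjusted p of 0.0395.

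The remaining subunits belong to fibronectin and collagen receptors and to their common beta chain. ITGA5 (ENSG00000161638, chromosome 12, 54395261 to 54419266, minus strand), the fibronectin-binding alpha chain, was at 219, 201 and 221 CPM in STING-OE libraries and at 233, 247 and 224 CPM in NC libraries. The groups lay close together without overlapping, and the estimated log2 fold change was -0.14 (SE 0.051, edgeR adjusted p = 0.21). ITGA2 (ENSG00000164171, chromosome 5, 52989340 to 53094779, plus strand), the collagen-binding alpha chain, was at 103, 99.8 and 106 CPM in STING-OE libraries and at 105, 109 and 99.1 CPM in NC libraries. These ranges overlapped, and the log2 fold change was -0.02 (SE 0.05, edgeR adjusted p = 0.925).

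ITGB1 (ENSG00000150093, chromosome 10, 32900318 to 33005792, minus strand) was at 478, 511 and 512 CPM in STING-OE libraries and at 546, 534 and 543 CPM in NC libraries. STING-OE library 1 was the lowest, and the groups did not overlap. Its log2 fold change was -0.11 (SE 0.043) and it did not pass the test (edgeR adjusted p = 0.216). Under the GC and length correction its estimate was -0.162 and passed (edgeR adjusted p = 0.00788). The libraries differed in their trend with GC content, which was 0.0278, -0.063 and -0.0338 per 10% GC on the log2 scale in STING-OE libraries 1, 2 and 3 and 0.0157, 0.0414 and 0.0119 in NC libraries 1, 2 and 3, and the longest transcripts of the members ran between 37.8% GC for ITGB8 and 63.7% GC for ITGB4. Under it ITGAV, ITGB4 and ITGB5 were still called, at log2 fold changes of -0.295, -0.226 and -0.249.

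**Figure D3:**
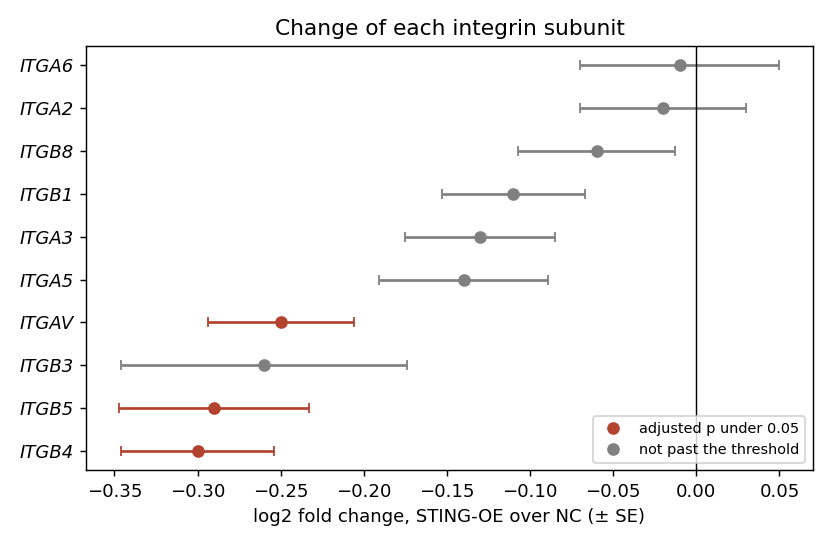
Log2 fold change of each integrin subunit, STING-OE over NC, with bars of 1 standard error from edgeR's quasi-likelihood test. ITGB4, ITGB5 and ITGAV, in red, passed an adjusted p of 0.05, and the 7 in grey did not.

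Receptors need both chains, so the counts of known partners were divided by each other within each library, which removes the scaling of the libraries. Of 9 such pairs 3 had ratios that did not overlap between groups. The CPM values of single genes were apart in 19.9% of tested genes, and no such share was taken for other gene pairs. The 9 pairs reuse the same genes, and each of the 3 holds ITGAV or ITGB4, whose own falls enter the ratio. ITGA6 to ITGB4 was 0.612, 0.734 and 0.694 in STING-OE libraries and 0.557, 0.532 and 0.582 in NC libraries, a log2 difference of 0.28 (SE 0.086). ITGA6 thus stood higher relative to its partner in every STING-OE library. ITGAV to ITGB1 was 0.434, 0.44 and 0.418 in STING-OE libraries and 0.469, 0.478 and 0.476 in NC libraries, a log2 difference of -0.14 (SE 0.023), and ITGAV to ITGB8 averaged 1.51 ± 0.085 in STING-OE and 1.73 ± 0.086 in NC (SD, n = 3), a log2 difference of -0.19 (SE 0.063). Each of the 3 had a two-sided exact permutation p of 0.1, the smallest possible, or 0.3 when adjusted over the 9 pairs.

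ITGAV to ITGB5, whose transcripts both fell, averaged 4.49 ± 0.36 in STING-OE and 4.38 ± 0.24 in NC (SD, n = 3), a log2 difference of 0.03 (SE 0.081, exact permutation p = 0.8). The ratio of ITGAV to ITGB3 also overlapped, at 10.7 ± 1.3 in STING-OE and 10.6 ± 0.75 in NC. The alpha chains ITGA3 and ITGA5 to ITGB1 had log2 differences of -0.02 each, ITGA2 to ITGB1 one of 0.09 and ITGA6 to ITGB1 one of 0.10, all with overlapping groups. Whether a surface receptor changed cannot be read from transcript ratios.

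**Figure D4:**
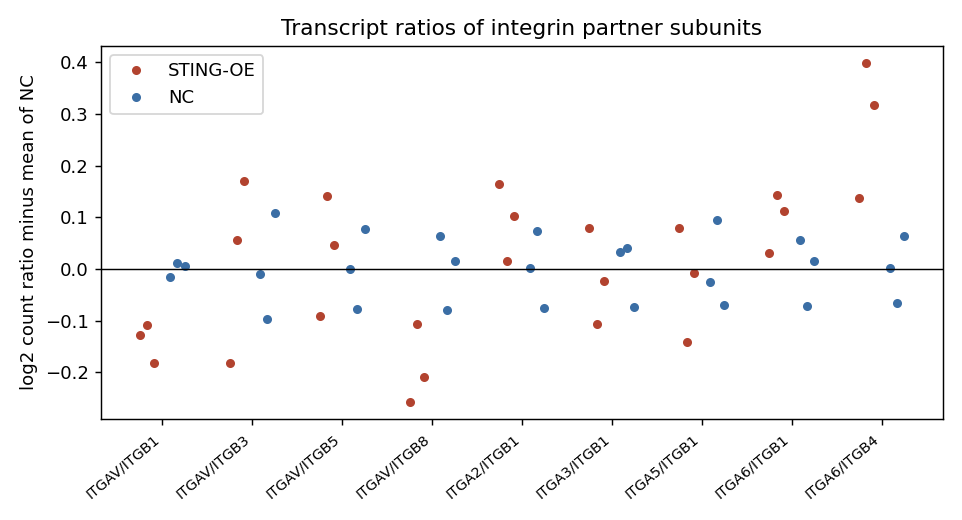
Log2 ratio of the counts of partner subunits within each library, set to 0 at the mean of the NC libraries. Each point is 1 library, STING-OE in red at the left and NC in blue at the right of each pair. The groups separate for ITGAV/ITGB1, ITGAV/ITGB8 and ITGA6/ITGB4 and overlap for the other 6 pairs.

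Of the 16 other integrin subunits 13 could be tested, and 0 passed (DESeq2 and limma-voom also called 0). An unadjusted edgeR p under 0.05 was found for 4 of the 13, against 3116 of all 21679 tested genes. The median log2 fold change of the 13 was -0.449, against 0.001 over all tested genes, but 9 of the 13 had a mean of at most 2.03 CPM. Without STING-OE library 1 or 3 the median was -0.276 or -0.272, without NC library 2 it was -0.065, and with the stricter filter, which left 6 subunits, it was -0.136. The median was -0.6 among these 9 and -0.04 among the 4 with at least 10 CPM, ITGA4, ITGA1, ITGA7 and ITGAE. ITGA4, an alpha chain that binds fibronectin and VCAM-1, was at 25.3, 25.8 and 28.4 CPM in STING-OE libraries and at 29.9, 29.8 and 31.6 CPM in NC libraries (edgeR adjusted p = 0.166). The groups did not overlap. The leukocyte subunits ITGAL and ITGB2 were low, at 0.673 ± 0.0577 CPM in STING-OE against 1.23 ± 0.373 CPM in NC and at 1.44 ± 0.275 against 2.62 ± 1.18 CPM (SD, n = 3, edgeR adjusted p of 0.186 and 0.206). The leukocyte marker PTPRC was at 0.937, 2.47 and 3.08 CPM in STING-OE libraries and at 2.12, 7.64 and 4.66 CPM in NC libraries, and the summed level of the 5 leukocyte and myeloid markers ran from 23.2 to 38.5 CPM in STING-OE and from 24.5 to 29.8 CPM in NC, so the sums overlapped. CD68 made up most of these sums and averaged 28.4 ± 8.53 CPM in STING-OE and 20.4 ± 3.74 CPM in NC, whereas PTPRC averaged 2.16 ± 1.1 and 4.81 ± 2.76 CPM and AIF1 0.0172 ± 0.0299 and 0.129 ± 0.121 CPM, CD14 1.14 ± 0.331 and 1.1 ± 0.183 CPM, and CSF1R 1.37 ± 0.291 and 1.4 ± 0.196 CPM (SD, n = 3). The groups overlapped for each of the 5. Their part in the values of ITGAL and ITGB2 was not tested. Summed endothelial (4 genes) and epithelial (4 genes) markers ran from 19.3 to 22.5 and from 0.898 to 3.1 CPM in STING-OE and from 19.8 to 21.4 and from 0.636 to 2.17 CPM in NC. KDR made up most of the endothelial sums, at means of 19.7 CPM in STING-OE and 19.4 CPM in NC. PECAM1 averaged 0.208 and 0.806 CPM, CDH5 0.431 and 0.516 CPM, and TEK 0 and 0.0272 CPM, with overlapping groups.

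Of 35 tested activators and adaptors, proteins that join integrin tails to actin and to kinases, 0 rose, 3 fell and 32 did not pass. Over all tested genes 0.89% were called lower, and 1.97% of those averaging 20 CPM or more. The list median was -0.069, against 0.001 over all tested genes. TNS3 and TNS2 encode tensins, which bind beta chain tails. TNS3 was at 368, 347 and 367 CPM in STING-OE libraries and at 433, 427 and 411 CPM in NC libraries (log2 fold change -0.23, edgeR adjusted p = 0.0142), and TNS2 at 6.13 ± 0.519 CPM in STING-OE and 8.93 ± 0.619 CPM in NC (SD, n = 3, log2 fold change -0.54, edgeR adjusted p = 0.0367). FLNA, the actin crosslinker filamin A, fell to 0.886 of the control level (edgeR adjusted p = 0.0475). The groups were apart for all 3, which were named because they passed this same comparison. Over all tested genes 9.73% were apart and lower. Leaving out any 1 of the 6 libraries ended the call of TNS2, leaving out any but STING-OE library 1 ended that of FLNA, and leaving out STING-OE library 2 or NC library 1, 2 or 3 ended that of TNS3. The GC and length correction ended the calls of FLNA (log2 fold change -0.093, edgeR adjusted p = 0.107) and TNS2 (-0.466, adjusted p = 0.0628), and total counts as library sizes that of FLNA (adjusted p = 0.0729). The number called was 4, 0 and 1 without STING-OE library 1, 2 or 3, against 741, 95 and 163 of all tested genes. Without NC library 1, 2 or 3 the number called was 0, against 60, 60 and 104 of all tested genes. By DESeq2 it was 7, against 1001 of all 21679 tested genes.

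Of 24 tested membrane partners and trafficking genes 0 passed, with a median of -0.035, against 0.001 over all tested genes. An unadjusted edgeR p under 0.05 was found for 9 of them, against 3116 of all 21679 tested genes. DESeq2 called 3 lower, against 592 of all 21679, and limma-voom called 0 of the list. The median was -0.068 and -0.079 without STING-OE library 2 or 3, -0.097 and -0.062 without NC library 1 or 2, and -0.004 with total counts as library sizes. The smallest p-values were those of CD82 and CD9, tetraspanins that associate with laminin-binding integrins, and of BSG, which encodes basigin, an inducer of matrix metalloproteases. CD82 averaged 67.5 ± 4.33 CPM in STING-OE and 78.6 ± 4.65 CPM in NC (edgeR adjusted p = 0.0788), BSG 633 ± 37.5 and 713 ± 13.7 CPM (0.0792), and CD9 94.8 ± 7.52 and 109 ± 4.03 CPM (0.107; SD, n = 3). Without STING-OE library 1 the number called was 4, of which 1 was higher and 3 were lower, against 741 of all 22658 genes tested there.

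Of 36 tested ligands 0 rose, 5 fell and 31 did not pass, with a median of -0.079, against 0.001 over all tested genes. The share called lower was 0.89% over all tested genes and 1.97% over those averaging 20 CPM or more. EDIL3, a secreted RGD protein that binds ITGAV receptors with ITGB3 or ITGB5, was at 69.3, 74.3 and 74.1 CPM in STING-OE libraries and at 98.2, 95.8 and 95.1 CPM in NC libraries. The gap between the groups was several times the range within either. EDIL3 fell to 0.753 of the control level (log2 fold change -0.41, SE 0.049, edgeR adjusted p = 0.000782), a call that held without each of the 6 libraries in turn. LTBP3, which carries latent TGF-beta, fell to 0.776 of the control level (75.2 ± 5.31 CPM in STING-OE and 97.0 ± 4.54 CPM in NC, SD, n = 3, edgeR adjusted p = 0.00495), and its call was lost without NC library 2 (0.0526).

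LAMA5, a laminin alpha chain bound by ITGA3 and ITGA6 receptors, fell to 0.832 of the control level (155 ± 6.72 CPM in STING-OE and 186 ± 7.39 CPM in NC, edgeR adjusted p = 0.0135). TNC, the matrix glycoprotein tenascin-C, and TGFBI, a secreted integrin ligand induced by TGF-beta, each fell to 0.882 of the control level (edgeR adjusted p of 0.0386 and 0.0396). Leaving out any library but STING-OE library 1 ended the calls of TNC and TGFBI, and leaving out STING-OE library 2 or NC library 1 or 2 that of LAMA5. Total counts as library sizes ended the calls of TNC and TGFBI (adjusted p of 0.0676 and 0.0661), and the GC and length correction gave LAMA5 a log2 fold change of -0.174, against -0.27 without it. VTN, the gene of vitronectin, averaged 0.0649 CPM in STING-OE and 0.182 CPM in NC and was too low to test. The number of ligands called was 6, 2 and 4 without STING-OE library 1, 2 or 3, against 741, 95 and 163 of all tested genes. Without NC library 1, 2 or 3 the number of ligands called was 2, 1 and 3, against 60, 60 and 104 of all tested genes. By DESeq2 it was 10, against 1001 of all 21679 tested genes.

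**Figure D5:**
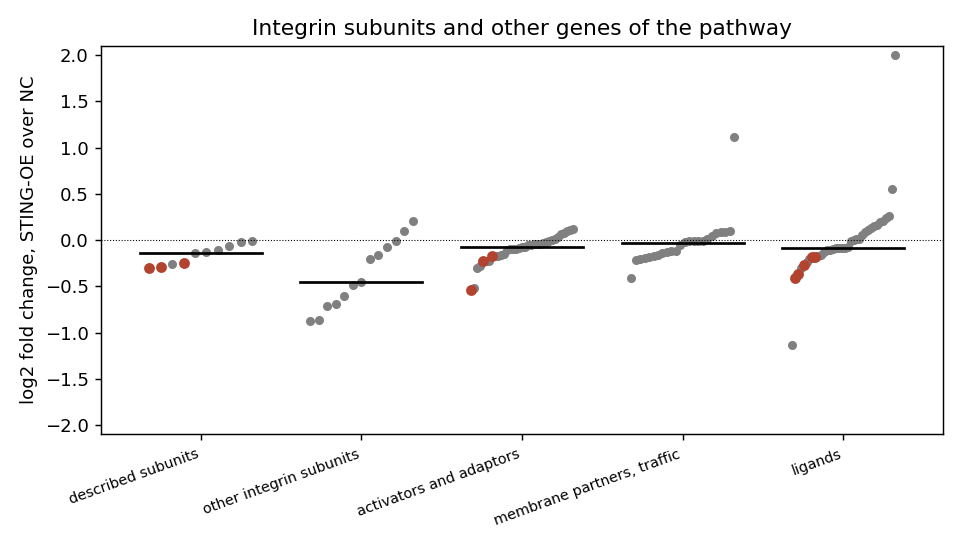
Log2 fold change, STING-OE over NC, of every tested gene of the 10 described subunits and of the 4 other lists, each list sorted from low to high. Red points passed an adjusted p of 0.05, black lines are list medians, and 1 ligand, COL3A1 (log2 fold change 3.27, adjusted p = 0.166), is drawn at the upper edge of 2. All red points lie below 0, and the ligands span the widest range, from -1.13 for NPNT to 3.27 for COL3A1. Both of these genes were low: NPNT averaged 0.117 CPM in STING-OE and 0.258 CPM in NC, and COL3A1 0.772 and 0.0792 CPM.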

How the data were processed

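Libraries were made from 1 ug of Trizol-extracted RNA with a TruSeq kit, per the labels' protocols, and Bowtie 0.12.2 is named in the submitters' processing notes. What counted the reads, on which annotation, build and strand, is not given in the sources used. Per the file headers, the deposited tables hold the authors' raw read counts and FPKM values per Ensembl gene. GENCODE v29 (GRCh38) held 40903 of the 42307 identifiers, 89.8% of them with the deposited start or end to within 1 base. Coordinates are therefore labelled GRCh38.

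The count test was that of edgeR 4.0.16, run in R 4.3.3 (TMM scaling, filterByExpr by group, robust quasi-likelihood fit, two-sided, Benjamini-Hochberg adjustment over 21679 genes). CPM values use TMM-scaled library sizes, and a standard error is the size of the log2 fold change divided by the root of the F statistic. DESeq2 1.42.0, limma 3.58.1 and other settings served as alternatives, and the procedure was tested on simulated data. There it missed most changes of the size reported for the subunits, and the share of false calls was above the threshold. These shares were not split by expression level, and whether they hold at the levels of the subunits was not tested. No replicate pair agreed within sampling noise (chi-square per gene 11.7 to 23). The named genes were the 10 subunits, STING1, overlapping gene models, and from each other list the called genes (at most 6) or, with fewer than 3, the 3 with the smallest p. The subunits and lists were chosen with earlier results of these data known. PTPRC, the other markers, VTN and COL3A1 are given as marker checks or examples. Of 43 ligands listed 42 were found.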

Additional observations from a re-analysis of the deposited data

How the results depend on the processing

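Of the 18 alternatives run for each subunit, ITGB4 was called in 15, ITGAV in 12 and ITGB5 in 10, with log2 fold changes of -0.323 to -0.226, -0.295 to -0.221 and -0.321 to -0.235. ITGA2 and ITGA6 changed sign with total counts only (0.011 and 0.017), with FPKM at pseudocounts of 0.1 and 1 (0.002 and 0.005 at each), and with 1 library left out, where they ranged from -0.056 to 0.009 and from -0.058 to 0.048. ITGA3 passed in DESeq2 (adjusted p = 0.0395), and ITGB5 did not in limma-voom (0.0593). The order of the falls of ITGB4, ITGB5, ITGAV and ITGB3 changed between settings. With total counts the list medians were -0.04 for adaptors and -0.049 for ligands, and with the GC and length correction -0.045 for ligands. The number of genes called, 324, was 686 with the stricter filter, 1001 in DESeq2, 137 in limma-voom, 13 and 14 with limma on FPKM at pseudocounts of 0.1 and 1, 518 under the GC and length correction, and 60 to 741 with 1 library left out. Total counts only gave 246 higher and 138 lower genes, against 131 higher and 193 lower with TMM. With FPKM at either pseudocount 0 subunits, 0 adaptors and 0 ligands were called. With 1 library left out the numbers were 0 to 3 subunits, 0 to 4 adaptors, 0 to 4 membrane partners and 1 to 6 ligands. DESeq2 called 7 adaptors, 3 membrane partners and 10 ligands, the stricter filter 3 membrane partners and 10 ligands, and no filter 1 membrane partner. The causes were not tested.

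The groups share replicate numbers, and same-numbered libraries correlated at 0.0551, 0.0231 and 0.0172 in their deviations from the group means. These were the highest values for each NC library and for STING-OE libraries 1 and 2, while STING-OE library 3 correlated best with NC library 2 (0.0192). All values lay between -0.04 and 0.0551. Whether the numbers mark pairs is not settled by this, and the main test did not use them. With the replicate number as a block 120 genes, 1 subunit (ITGB4, adjusted p = 0.029), 0 adaptors and 2 ligands were called, with ITGAV at 0.0603 and ITGB5 at 0.0659. Of the other integrin subunits 0 were called with each library left out and in DESeq2 and limma-voom. The GC and length correction and the alternatives for single pathway genes were chosen after seeing the data.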
